A study of Mus musculus with 157 samples.

Results

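The 200 transcripts described here were those lowest in RNA pulled down with an antibody against N6-methyladenosine (m6A), relative to the same RNA before pulldown, across the mouse blood system. They were chosen from the wild-type atlas of 16 cell types, which has 32 pulldown (IP) and 32 input libraries, 2 of each per type. Every library was scaled to CPM, which gives a gene's reads relative to its library's total, and 2151 of 36102 genes had a mean of at least 5 CPM in both tables in all 16 types. For each of these, log2(mean IP CPM + 1) minus log2(mean input CPM + 1) was taken per type, here called the pulldown ratio, and the median over types ranked the genes. Histone, ribosomal protein, zinc finger and other symbol families named in the rule were left out, 216 genes in all, and the 200 lowest of the remaining 1935 were kept. Of these members 198 are annotated as protein coding. Since the pulldown ratio in the atlas chose the members, their atlas values are a description, and no test was made on them.

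m6A is written on messenger RNA by a complex whose catalytic subunit is METTL3, mostly near stop codons and in long internal exons, and is read by YTH proteins and by IGF2BP proteins. In blood stem cells it has been linked to RNA decay and to the balance of self-renewal and differentiation. Transcripts that carry little m6A are often those of housekeeping genes. A low pulldown ratio is a low share of the pulled-down library, and is not a count of unmodified adenosines.

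Further libraries were used to look at the members outside the values that chose them. Mettl3 -/- and wild-type cells of 7 types (the labels' LT.HSC, ST.HSC and MPP at the stem cell end and CMP, MEP, MkP and GMP among progenitors) gave 14 IP and 14 input libraries per genotype. LT.HSC of Igf2bp2 -/- and wild-type animals gave 2 libraries each. All of these were untreated, and the labels used here do not give the promoter or Cre driver of the deletions, the ages or which libraries share an animal, and a p-value here speaks for the scatter of these libraries alone, which may be technical. SLAM-seq, in which 4-thiouridine built into new transcripts is read as T-to-C changes, gave 12 wild-type libraries of 6 types after 3 h of labelling, and chase averages of LT.HSC and MkP after 24 h of labelling. KO and WT below are the labels Mettl3 -/- or Igf2bp2 -/- and wild type.

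Some libraries went against their labels or stood apart. In the libraries labelled CD4, Cd8a had 1127 and 1145 CPM in the inputs and Cd4 0.729 and 1.31 CPM. In those labelled CD8, the inputs had 129 and 130 CPM of Cd4 and 6.87 and 2.72 CPM of Cd8a, so these markers were exchanged between the labels. IP showed the same exchange, except that the second IP library labelled CD4 also held 132 CPM of Cd4. Neutrophil transcripts were present in these inputs too. S100a8 had 1096 and 1737 CPM in those labelled CD4 and 14125 and 6762 CPM in those labelled CD8. Ngp had 427 and 676 CPM and 3632 and 2585 CPM in the same order. Inputs labelled Monocyte had 9.10 and 4.79 CPM of Csf1r, the lowest there of 4 monocyte markers (Csf1r, Ly6c2, Ccr2 and F13a1). The 4 summed to a mean of 2425 CPM in these inputs, rank 3 among types, below 2640 CPM in Neutrophil. For 1 of the 4, Monocyte was among the 4 highest types. In IP labelled Monocyte, Csf1r had 72.1 and 50.4 CPM. The Monocyte inputs also had the highest sum of neutrophil markers of all types. Mettl3 itself had 274 to 931 normalised reads in the 14 KO inputs and 127 to 5370 in the 14 WT inputs. Its reads thus did not separate the genotypes. The 5370 was in the first WT input of LT.HSC, and the second had 464. That first library also held the lowest share of members among Mettl3 inputs, 7.71%. Reads of Igf2bp2 did not separate the genotypes either, at 13.03 and 12.5 CPM in KO and 7.11 and 53.5 CPM in WT. Depth was 8.23 to 24.6 M reads (megareads) per atlas library, 3.42 to 20.2 M in Mettl3 inputs, 0.819 to 22.9 M in Mettl3 IP and 4.68 to 19.98 M in Igf2bp2 libraries. In the first WT IP library of LT.HSC, 94.2% of reads fell on 10 genes, and in the first of ST.HSC 75.8%. The members held 0.897% to 6.28% of an atlas IP library and 7.02% to 19.1% of an atlas input. Without CD4, CD8 and Monocyte the same rule picked 180 of the 200 members.

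The first annotated bases of the lowest members are shown because an m6A antibody also binds the methylated adenosine next to the cap. Of the 12 lowest, 7 have a single listed start in RefSeq's promoter table (GRCm38.p6). Each line gives the 15 bases before the start and the 15 from it, 5′ to 3′, with the first transcribed base in capitals.
Arpc1b, + strand of chr5:145114241-145114270: ccccgccccccgcccAcgaggaagtggctg
H2-D1, + strand of chr17:35263079-35263108: cgcaacccgcgggacTcagacacccgggat
Uqcrc1, + strand of chr9:108936633-108936662: agcaccaagtcttccTtacagcgcttgcgc
Ewsr1, - strand of chr11:5099082-5099111: ggttgcgggtttcgcGcctgcgcagtgcgg
Eif4a1, - strand of chr11:69672409-69672438: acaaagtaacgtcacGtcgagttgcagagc
Psmd4, - strand of chr3:95042600-95042629: aagactgagttctttGattggtgatgagca
Lman2, - strand of chr13:55362769-55362798: ggcgaccaggaacctCcaaagttatggagc
The first base was A in 1 of these 7. A single start was listed for 60.5% of all members, under the 80% set for a comparison with other genes, and that comparison is void.

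Members' pulldown ratios spanned -2.94 to -1.36, with a median of -1.61, against a median of -0.08 over all 2151 genes over the floor and 1.42 over the 200 highest by the same rule. The lowest was Arpc1b, which encodes a subunit of the Arp2/3 complex that nucleates branched actin. Over 32 libraries each, Arpc1b had 4.33 to 999 CPM in IP (median 254) and 60.2 to 7102 CPM in input (median 2024). In each of the 16 types both IP libraries lay below both inputs. H2-D1, a classical MHC class I heavy chain, had 51.6 to 1850 CPM in IP (median 1244) and 791 to 21657 CPM in input (median 8127), a ratio of -2.85. Uqcrc1, a core subunit of respiratory complex III, had 20.4 to 903 CPM in IP (median 97.7) and 126 to 3629 CPM in input (median 868). Its ratio was -2.84 and reached -4.58 in Erythroid and -4.52 in LT.HSC and in ST.HSC. H2-D1 and Uqcrc1, too, had no overlap of IP and input libraries in any of the 16 types. Of the 2151 genes over the floor, 199 (B_cell) to 1714 (Erythroid) were apart in this way in a type, and of the members 67 to 200. These are the values that chose the members, so the separation is a description.

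Ewsr1, which encodes an RNA-binding protein, had 17.8 to 252 CPM in IP (median 117) and 35.7 to 1986 CPM in input (median 476), a ratio of -2.68. Its IP and input libraries overlapped in 1 of the 16 types. Cd82, a tetraspanin of the cell surface, had a median of 24.1 CPM in IP and 194 CPM in input (-2.46). Cd82 was apart in all 16 types.

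Eno1, the glycolytic enolase, had 12.3 to 1550 CPM in IP (median 390) and 214 to 7181 CPM in input (median 2265), a ratio of -2.37. Fen1, the flap endonuclease of DNA replication, had 2.75 to 121 CPM in IP (median 33.9) and 5.07 to 1088 CPM in input (median 158), a ratio of -2.34. Of the 12 lowest, Fen1 alone was above 0 in a type, at 0.28 in B_cell. Eif4a1, the helicase that opens 5′ ends for translation, had medians of 247 CPM in IP and 1104 CPM in input (-2.33). Psmd4, a ubiquitin receptor of the proteasome, had medians of 84.0 and 410 CPM in IP and input (-2.28), and Lman2, a lectin that carries glycoproteins out of the endoplasmic reticulum, of 91.0 and 396 CPM (-2.28). Psmd4 and Lman2 were apart in all 16 types, and Eno1, Fen1 and Eif4a1 in 15.

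In GRCm38.p6 Arpc1b lies on chromosome 5 from 145114256 to 145128186. H2-D1, H2-K1, Ubb, Eno1, Eif4a1, Eif5a and Ldha have near-identical relatives or pseudogenes, and how the authors' counting split shared reads is not known, so their levels are uncertain. At the limit, the last genes inside were Ighm and Imp4 (both -1.37) and Fzr1 (-1.36), and the first outside were Wbp2, Copz1 and Lgals9 (all -1.36).

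Function lists, built from gene symbols, were laid over the members, and 10.3% of the eligible genes are members by construction. The proteasome held 7 members of 36 genes over the floor, all of its regulatory cap or that cap's assembly, and its median ratio was -0.68. The cytoskeleton list held 8 of 38 and the antigen presentation list 3 of 9. Secretory and vesicle transport held 8 of 61, chaperones and folding 6 of 47, ubiquitin 4 of 34 and translation factors 3 of 36. The respiratory chain held 3 of 44, beside 12 genes among the 200 highest. The spliceosome and RNA-binding list held 2 of 69. None of the 11 genes encoded by the mitochondrial genome was a member and 10 were among the 200 highest. None of the 3 m6A writer genes and 5 reader genes over the floor was a member. In all, 54 members were in a list and 146 in none.

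In the degradation machinery, the low ratios lay in the proteasome's gatekeeper. The 19S particle binds, unfolds and deubiquitinates substrates, and the 20S core cuts them. With Adrm1, which the list did not include, 8 of 18 genes of the 19S particle were members and their group median was -1.30, whereas 0 of 15 genes of the 20S core were members and their median was -0.37. This split was made after the values were seen. The ubiquitin receptors Psmd4 and Adrm1 (-2.27) were lowest, followed by the lid subunit Psmd13 (-2.16), the assembly chaperone Psmd5 and the lid subunit Psmd11 (-1.86). The ATPase subunits Psmc4 (-1.76), Psmc5 (-1.59) and Psmc3 (-1.50) came last among the members. The highest of the 19S group was Psmc6, at -0.49, and the lowest of the 20S group was the immunoproteasome subunit Psmb8, at -1.09. Stub1, a ubiquitin ligase that works with chaperones (-2.17), and Ube2v1, a partner of the enzyme that builds K63-linked chains (-2.23), were members too. Ubb, which encodes ubiquitin, stood at -1.77.

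Mitochondrial complexes were divided. In complex III, Uqcrc1 and Cyc1, which holds the haem of cytochrome c1 (-1.83), were members, while Uqcrh and Uqcrb were among the 200 highest. Sdhd, a membrane anchor of succinate dehydrogenase, stood at -1.78. Of 11 nuclear genes of cytochrome c oxidase none was a member and 5 were among the 200 highest, and the same counts held for 16 genes of the ATP synthase (0 and 5). The mitochondrial genome's own transcripts had a median ratio of 2.28.

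**Figure D1:**
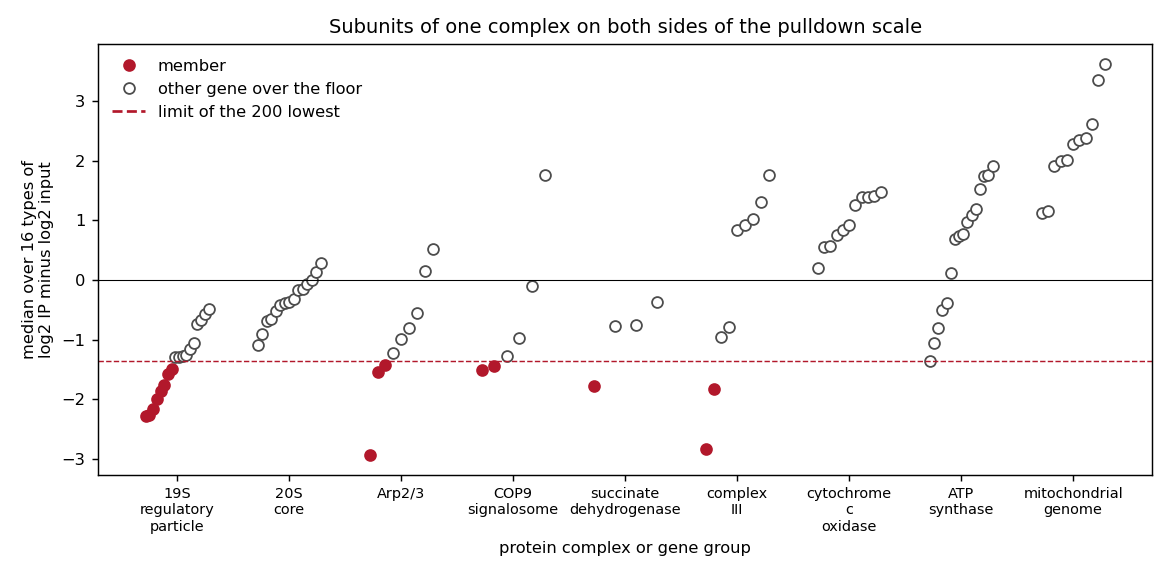
Median pulldown ratio over the 16 atlas types (y axis, log2 IP minus log2 input) for every gene over the floor in 9 complexes or gene groups (x axis). Filled points are members and open points other genes. The 19S particle holds 8 filled points and the 20S core none, and complex III has genes at both ends of the scale, from -2.84 to 1.76.

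Among cytoskeletal members, Arpc1b was joined by Arpc5 (-1.54) and Arpc3 (-1.43) of the same complex. Coro1b (-2.13) and Coro1a (-1.98) encode coronins, which bind actin filaments and Arp2/3. Tuba4a (-1.67) and Tubb4b (-1.47) encode tubulins and share sequence with other tubulin genes. In the secretory route, Tmed2 (-2.28) sorts cargo into vesicles, Ddost (-2.05) is a subunit of the oligosaccharyltransferase, and Ap2m1 (-2.04) and Sec13 (-1.72) are coat components. Of the chaperones, Ppil2 (-1.93) and Fkbp4 (-1.72) are prolyl isomerases and Cct7 (-1.71) is a subunit of the chaperonin that folds actin and tubulin. The translation factors were Eif4a1, Eif5a (-2.12) and Eif6 (-2.02), which acts in ribosome maturation.

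H2-K1 (-1.65) and Cd74, the invariant chain of MHC class II (-1.52), were the antigen presentation members besides H2-D1. B2m, the light chain that pairs with class I heavy chains, lay at 1.01, on the opposite side of 0. All 3 cathepsins over the floor, the lysosomal proteases Ctsd (-1.63), Ctsz (-1.46) and Ctsb (-1.46), were members, as were Psap, the precursor of the saposins (-1.71), and Grn, the precursor of lysosomal granulins (-1.38). These lysosomal genes were picked out after their values were seen. Members with roles in the cell cycle included Cdc20 (-1.70) and Fzr1, both activators of the anaphase-promoting complex, Bub3 of the spindle checkpoint (-1.87), and Rfc5 (-1.48) and Rfc2 (-1.42) of the clamp loader. H2afx (-1.95) and Hmgb3 (-1.48) encode chromatin proteins.

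Since the median over types chose the members, a low ratio in many types was built in, and its depth differed among types. In the atlas, 125 members were below 0 in all 16 types, 52 in 15 and 21 in 14, and the fewest was 11 types, for Fzr1. In a single type, 144 to 200 members were below 0, as were 23.9% to 85.1% of all genes over the floor. By type, the members' median ran from -3.08 in Erythroid through -2.33 in ST.HSC and -2.16 in LT.HSC to -0.95 in Monocyte and -0.47 in B_cell. All genes over the floor had their lowest median in Erythroid too, at -1.36, and their highest in Monocyte, at 0.89, with another order of types between them. The members' median lay 1.01 (B_cell) to 2.15 (ST.HSC) log2 units below that of the genes over the floor. Erythroid was the lowest type for 153 members and B_cell the highest for 102. In the B_cell inputs, members differed between the 2 libraries by a median of 1.24 log2 units, against at most 0.49 in the other types. In Erythroid, 10 genes held up to 82.3% of an IP library. The part of these library features in the order of types was not tested, and differences between neighbouring types in this order of less than the replicate differences are not resolved.

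**Figure D2:**
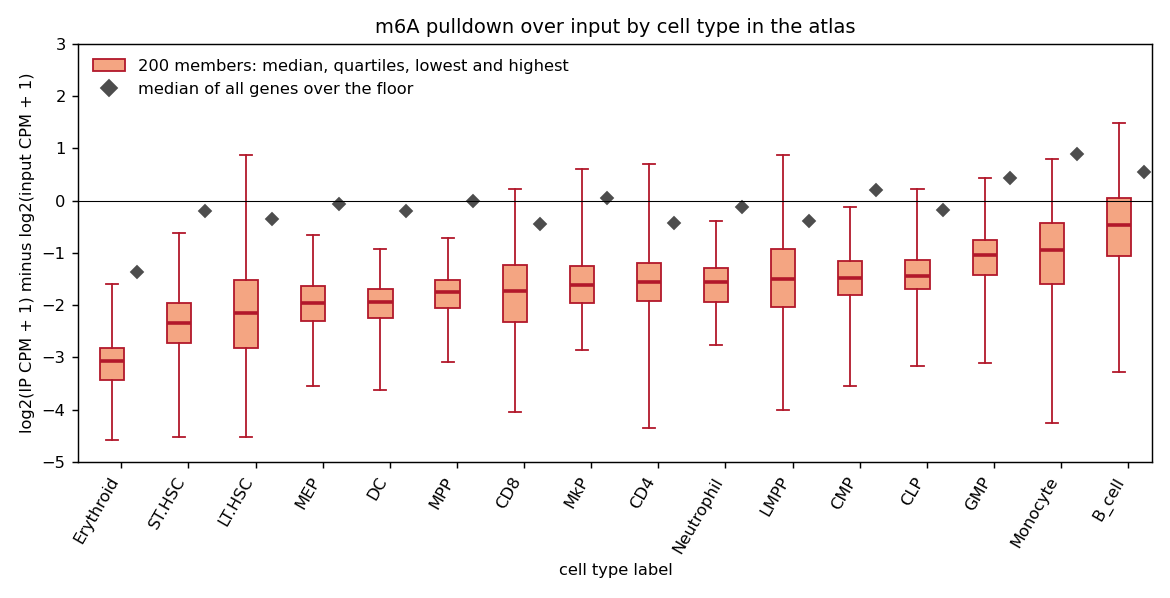
Pulldown ratio (y axis, log2) of the 200 members in each of the 16 atlas types (x axis, sorted by the members' median). Boxes give quartiles and median, whiskers the lowest and highest member, and diamonds the median of the 2151 genes over the floor. The diamonds lie above the members' median in all 16 types.

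The members' RNA itself varied widely among types. Cd74 ranged from a mean input of 35087 CPM in B_cell to 24.9 CPM in GMP, and Ighm, the constant region of IgM, from 17650 CPM in DC to 17.4 CPM in MEP. Slc25a39, a mitochondrial carrier, was highest in Erythroid, at 2948 CPM. The most even member was Oaz1, the antizyme that controls polyamine synthesis, with a 2.78-fold range among types. The median range was 18.1-fold for members and 15.2-fold for all genes over the floor. In total the members made up 0.935% to 5.85% of reads by type in IP and 7.41% to 15.3% in input. In bulk libraries, fewer cells of a kind and less RNA per cell cannot be told apart.

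The members' genes were shorter at the median, and gene size was not used to choose them. The median span from start to end was 11546 bases for 199 members with an entry in RefSeq's gene table, 26667 bases for the 200 highest and 14883 bases for all genes over the floor. Genes over 50 kb made up 2.01% of members, 32.5% of the 200 highest and 14.7% of genes over the floor. Genes under 5 kb made up 19.6%, 15.7% and 19.2% in the same order, so short genes were as frequent among all genes over the floor. The genes over the floor here include the 216 symbols that the rule left out. Spliced transcript length and the m6A sequence context were not computed, for want of transcript sequences.

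The depletion recurred in libraries that the choice had not used. In the 7 WT types of the Mettl3 set, 176 to 200 members had at least 5 CPM in both tables, and their median ratio ran from -2.79 in LT.HSC to -1.05 in GMP. The median of all genes over that minimum was -1.41 to -0.05. Of 165 members at that minimum in all 7 WT types, 162 (98.2%) were below 0 in every one, as were 36.7% of 4336 genes at the minimum. The median member stood at percentile 10.7 to 16.8 among all genes of its type. Across 1993 to 2151 genes, the WT ratio of a type and the atlas median correlated at r = 0.614 to 0.830, a description across genes, which are not independent replicates.

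The members' ratios were low in KO as well. In the 7 KO types the members' median was -2.08 to -1.54, against -0.45 to -0.23 for all genes, and the median member stood at percentile 9.26 to 13.9. Of 197 members at the minimum in all 7 KO types, 188 (95.4%) were below 0 in every one, as were 38.7% of 6257 genes. Arpc1b had a median ratio of -2.57 in KO and -2.07 in WT, Uqcrc1 of -2.53 and -2.28, and Psmd4 of -1.95 and -1.57. Each of the 12 lowest members was below 0 in all 7 types of both genotypes. The lowest WT medians, in LT.HSC and ST.HSC, are those with the 2 WT IP libraries in which 10 genes took 94.2% and 75.8% of reads, and the part of this was not tested. In the other 5 WT types the members' medians were -2.11 in MkP to -1.05 in GMP.

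**Figure D3:**
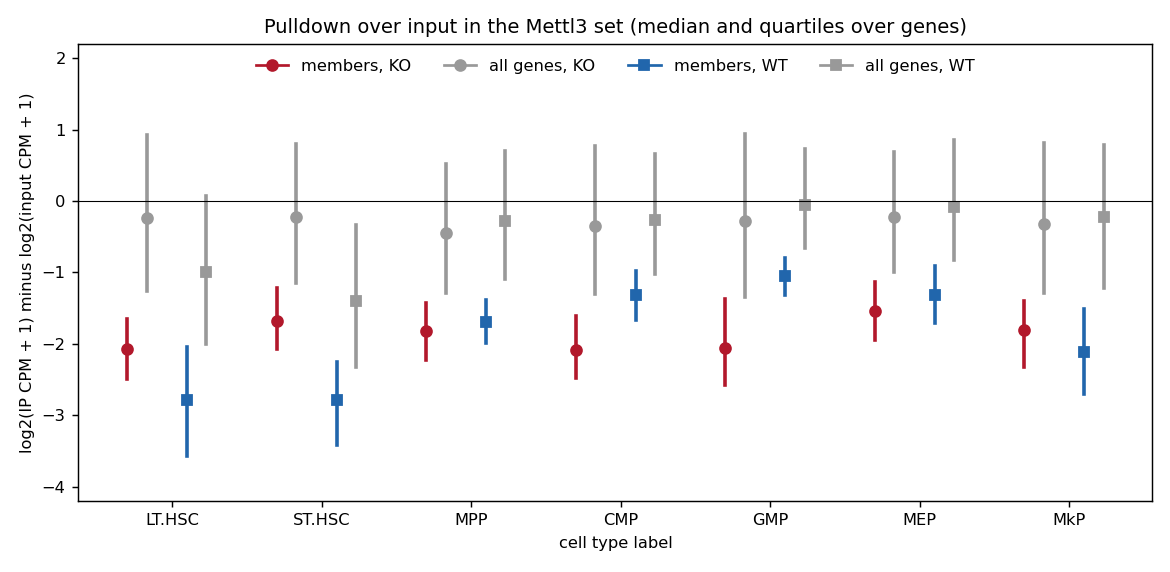
Pulldown ratio (y axis, log2) in the 7 types of the Mettl3 set (x axis), KO left of WT. Coloured points and bars are the median and quartiles of the members, grey ones those of all genes with at least 5 CPM in both tables. The members' medians lie between -2.79 and -1.05, below the grey median of the same libraries in every type and genotype.

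The change of the ratio between genotypes was tested gene by gene, with scaling factors that align libraries within the IP table and within the input table. No member and none of 12855 genes passed limma's test averaged over the 7 types (0% called). At an unadjusted p under 0.05, 33 of 200 members were lower in KO and 0 higher, against 377 lower and 266 higher of all genes. The members' median change was -0.53 against 0.00 for all genes. This change is built from the same input libraries that are compared between KO and WT below, so those results are not independent. Higher input in KO lowers the ratio by construction. The members with the smallest p were Puf60, a splicing factor, at -1.06 (SE 0.33, unadjusted p = 0.00246, adjusted p = 0.915), and Rrp1, a ribosome biogenesis factor, at -0.89 (SE 0.28, adjusted p = 0.915). Without the scaling factors the median of all genes shifted to 0.52 and that of the members to 0.33, so the sign of the members' change depended on the scaling, while the members stayed below the median of all genes in both. Without 3 IP libraries that stood apart (the first of WT LT.HSC, of WT ST.HSC and of KO MEP) the medians were -0.42 for members and -0.07 for all genes. Leaving out the second WT IP library of LT.HSC gave 1 member, Ap2m1, among 11 genes called.

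Input RNA of the members was then compared between KO and WT, which asks whether their abundance moves when the m6A writer is labelled deleted. Averaged over the 7 types, 32 of 200 members were higher in KO and 0 lower (limma, Benjamini-Hochberg adjusted p under 0.05), where 7.24% of 15030 genes were called higher and 2.89% lower. The members' median difference was 0.33 log2 units, against -0.06 for all genes and 0.00 for genes over the floor, and 174 members had a difference above 0. Within single types the members' median was 0.67 in LT.HSC, 0.63 in MPP, 0.60 in ST.HSC, 0.20 in CMP and in GMP, 0.10 in MkP and -0.14 in MEP. In MEP 2 members passed the threshold, Coro1a and Limd2, both higher, where 2.14% of genes were called higher and 0.00665% lower. Coro1a had 1290 and 2847 normalised reads in KO MEP and 499 and 251 in WT MEP (log2 difference 2.43, adjusted p = 0.0491). Limd2 had 1263 and 1009 in KO MEP and 299 and 216 in WT MEP (2.15, adjusted p = 0.0302). KO libraries were above WT libraries for both. In LT.HSC no member passed after adjustment (0.399% of genes called higher and 0.14% lower). There, 56 members (28%) reached an unadjusted p under 0.05, all higher, as did 1445 higher and 1095 lower of the 15030 genes (16.9%). The other 5 types had no member called either, with 0.0133% of genes called higher in MPP and in ST.HSC, 0.0998% higher and 0.0133% lower in MkP, 0.00665% higher in CMP and 0% in GMP. At an unadjusted p under 0.05, limma counted 22 members (11%) in MPP, 9 (4.5%) in ST.HSC, 8 (4%) in MkP, 1 (0.5%) in GMP and 0 in CMP. The shares of all genes at that threshold were 9.99% in MPP, 11.4% in ST.HSC, 9.46% in MkP, 1.52% in GMP and 1.69% in CMP.

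Whether the genotype difference varied among types was tested with an interaction F test. No member was called (limma, smallest adjusted p = 1.00, 1 member at an unadjusted p under 0.05), and 0.0133% of all genes were. Same-numbered libraries of different types deviated together: the replicate differences of 15 of 21 pairs of KO types and 19 of 21 pairs of WT types correlated above 0.1. With 1 mean per genotype and replicate number, 2 against 2, no member was called, and the calls among all genes in that fit are not given here. For the called members, the same KO library stood above the other in nearly every case. The second KO library was the higher one for 29 to 32 of the 32 called members in 6 types, and in ST.HSC the first was the higher for all but 1. Over all 15030 genes the second was higher for 43.1% to 49.2%. The called members' median log2 difference between the second and the first KO library was 0.47 to 1.00 in these 6 types and -1.22 in ST.HSC, against -0.13 to 0.00 for all genes. The part of these libraries in the members' difference was not tested.

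The number of calls changed with the types and libraries used. Calls among all genes under each of these settings are not given here. The counts therefore cannot tell a change of the members from a change shared by all genes. Without LT.HSC 12 members were higher and 1, Tspan13, lower. Without LT.HSC, MPP and ST.HSC, a choice made after the data were seen, none was called. Leaving out 1 library at a time gave 16 to 56 higher members. The count was 17 without the second KO library of CMP or LT.HSC or the second WT library of GMP, and 18 without the second KO library of GMP, MEP, MPP or MkP. It was 19 without the first KO library of ST.HSC, the second WT library of CMP or MkP, or the first WT library of ST.HSC, and 16 without the second WT library of MPP. It was 56 without the second KO library of ST.HSC. With TMM factors, which moved the median of all genes to 0.08, 15 members were higher and their median difference was 0.49.

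Grn had the smallest adjusted p. Its normalised read count was 827 to 6716 in the 14 KO inputs (median 2872) and 311 to 3554 in the 14 WT inputs (median 1167). The KO libraries were above both WT libraries in 5 of 7 types, and the KO mean was higher in all 7. The log2 difference was 1.32 (SE 0.24, limma adjusted p = 0.00102). Atg101, which encodes a subunit of the kinase complex that starts autophagy, had 1508 to 7972 in KO (median 2935) and 817 to 2292 in WT (median 1381). Its difference was 1.35 (SE 0.26, adjusted p = 0.00171), with no overlap of genotypes in LT.HSC, ST.HSC, MPP and MkP. One KO library was well above the other in each type, for example 2418 and 7406 in LT.HSC and 4714 and 1571 in ST.HSC. Tuba4a had 2467 to 27517 in KO (median 6397) and 1080 to 6752 in WT (median 2610), a difference of 1.11 (SE 0.28, adjusted p = 0.0140). Its highest value was the second KO library of GMP.

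Apoe, which encodes the lipid carrier apolipoprotein E, had 889 to 41556 in KO (median 12049) and 1587 to 11304 in WT (median 4463). Its difference was 1.13 (SE 0.32, adjusted p = 0.0256). In the fit by type its difference was -0.79 in GMP and -0.04 in CMP and above 0 in the other 5 types. Cd74 had 102 to 31170 in KO (median 1487) and 42.0 to 1751 in WT (median 683), a difference of 1.66 (SE 0.53, adjusted p = 0.0477). Both KO libraries were above both WT libraries in MPP, GMP and MEP and below them in LT.HSC, and the second KO library of CMP alone held 31170. H2-D1 (1.10, adjusted p = 0.0121) and H2-K1 (0.91, adjusted p = 0.0101) rose as well, so that all 3 antigen presentation members were called. Of the whole antigen presentation list, 10 of 28 genes tested were higher and 0 lower.

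Other members that rose were the cathepsins Ctsz (0.96), Ctsd (0.70) and Ctsb (0.60), Fen1 (0.93), the histone chaperone Asf1b (1.08), Umps of pyrimidine synthesis (1.01), the cell cycle inhibitor Cdkn2d (0.79), and the actin genes Coro1a (0.77) and Arpc1b (0.65). The smallest differences among those called were those of Snw1, a splicing and transcription cofactor (0.54), Stxbp2, a regulator of granule release (0.55), Napa, which recycles SNARE proteins (0.60), Ctsb, and Shisa5 (0.63). Snw1 had 3688 to 7524 normalised reads in KO (median 5345) and 2817 to 6690 in WT (median 3510). None of the 7 proteasome members was called, and their median difference was 0.32. The same held for the 3 respiratory chain members (0.39), the 3 translation factors (0.43) and the 6 chaperones (0.20). Of 9 m6A writer genes tested none was called, and of 12 readers 1 was higher and 1 lower.

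Markers of mature cells were read in the same inputs, because Cd74, the cathepsins and Grn are abundant in myeloid and antigen-presenting cells. Of 4 neutrophil markers, S100a9 and Ngp were higher in KO, and their list summed to 103 to 20249 normalised reads in KO and 40.6 to 6259 in WT. Of 4 dendritic cell markers, Flt3 was lower and Cd74, itself a member, higher. Without Cd74 the list summed to 8.55 to 971 in KO (median 66.2) and 11.5 to 2670 in WT (median 243). None of 4 monocyte markers was called, with sums of 47.0 to 7209 in KO and 52.9 to 10374 in WT. Of 3 megakaryocyte markers Itga2b was higher, and none of 4 erythroid and 2 B cell markers tested was called. No marker of these lists was at 0 in all libraries of a genotype, and the part of such cells in the members' difference was not tested.

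**Figure D4:**
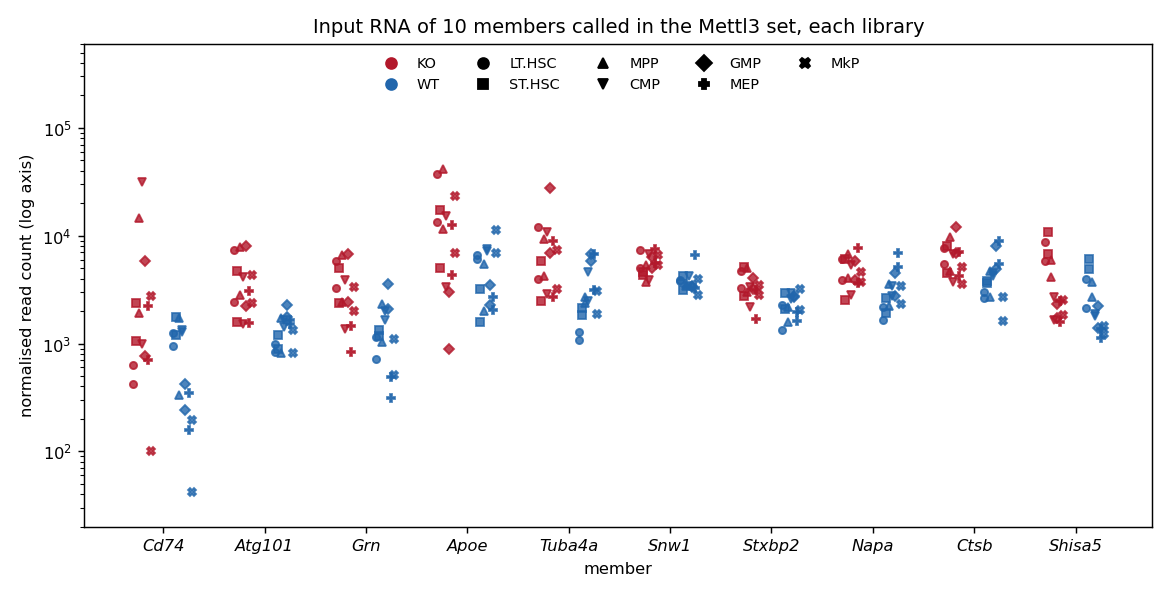
Normalised read count (y axis, log scale) of 10 members in each input library of the Mettl3 set, KO left of WT, with a symbol for each of the 7 types. The 10 are the 5 highest and 5 lowest log2 differences among called members. The ranges of KO and WT overlap for every gene when types are pooled, and the Grn median is 2872 in KO and 1167 in WT.

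The m6A reader gene Igf2bp2 was labelled deleted in LT.HSC alone. No member and none of 12221 genes passed edgeR's test between Igf2bp2 KO and WT (0% called), and DESeq2 called 0 members among 94 genes. At an unadjusted p under 0.05, 4 of 200 members (3 higher, 1 lower) and 777 genes were counted. The members' median difference was 0.30, against 0.00 for all genes and 0.34 for genes over the floor. The smallest p belonged to Sec13, with 168 and 179 CPM in KO and 68.7 and 80.1 CPM in WT (log2 difference 1.59, unadjusted p = 0.00917, adjusted p = 0.618).

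New RNA was lower among members than among the other genes over the floor, but not than among all genes of the table. After 3 h of labelling, the T-to-C ratio had a value for 198 members and for 1875 other genes over the floor. The members' median was 0.1998% in the second GMP library to 1.22% in the second MPP library, and that of the other genes over the floor 0.370% to 1.60% in the same libraries. It was below that of the other genes in 12 of 12 libraries, at 0.540 to 0.804 times their median. Against the median of all 17824 genes in the table, which include genes under the floor, the members' median was higher in 8 of 12 libraries, for example 0.681% against 0.276% in the second MEP library. Over the members' own medians across the 12 libraries, 60 of 198 exceeded the median of the other genes over the floor. Across 2073 genes, the ratio and the atlas pulldown ratio had a Spearman's rho of 0.0367 to 0.292 per library, a description across genes. The depth behind the T-to-C ratio is unknown, as is its denominator.

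**Figure D5:**
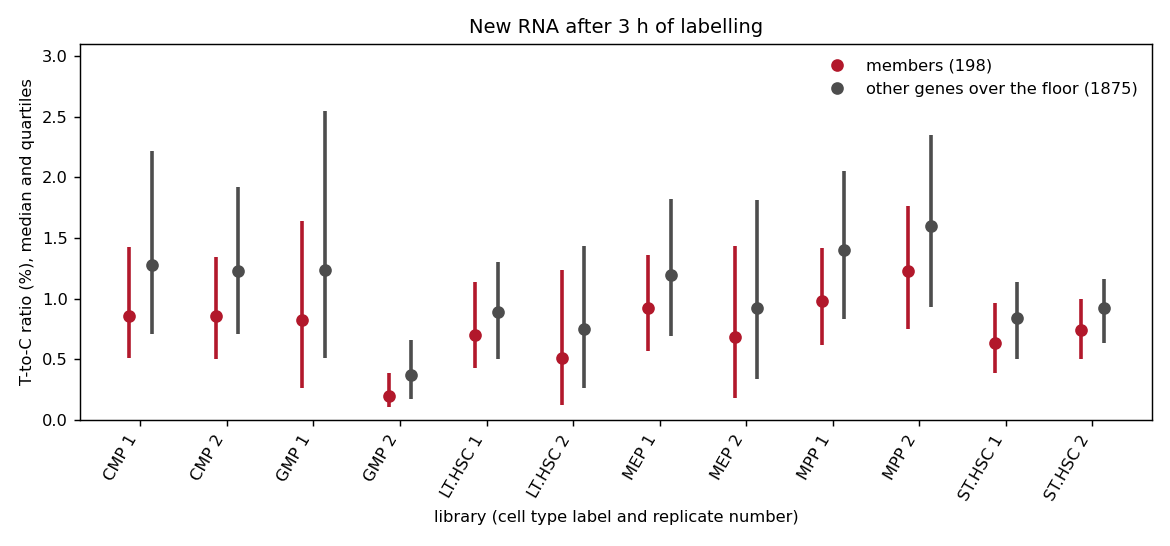
T-to-C ratio in percent (y axis) in each of the 12 libraries of new RNA (x axis), for members (left of each pair) and the other genes over the floor (right). Points are medians and bars quartiles over genes. The member median is the lower of the pair in all 12 libraries.

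Single members differed widely. Apoe had 0.00142% to 0.608% (median 0.0453%), and Tmx2, a thioredoxin-related membrane protein, 0% to 0.0604% (median 0.00631%). At the other end stood Oser1, an oxidative stress-responsive gene (0.398% to 9.12%, median 2.21%), Ndfip1, an adaptor of ubiquitin ligases (0.2997% to 4.15%, median 2.13%), and Herpud1, a factor of protein degradation at the endoplasmic reticulum (0.638% to 3.496%, median 2.09%). Of the lowest members in pulldown, Arpc1b had a median of 0.702%, H2-D1 of 0.766%, Uqcrc1 of 0.592% and Psmd4 of 0.803%. These were close to the members' median, whereas Fen1 (1.64%) and Eif4a1 (1.53%) were above it. For the contrast of LT.HSC with the mean of the 5 other types, no member of 196 tested and none of 13909 genes was called by limma (0% called, 10 members and 1371 genes at an unadjusted p under 0.05, smallest adjusted p of a member 0.416). The F test among 6 types called no member or gene either (0%, 6 members and 1695 genes unadjusted).

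In the chase, the deposited averages were incomplete. In MkP, 69 members and 596 other genes over the floor had a value at all 7 times. Their medians at 0.5, 1, 3, 6, 9, 12 and 24 h were 0.127%, 0.116%, 0.107%, 0.0304%, 0.0152%, 0.0380% and 0.0171% for members, against 0.127%, 0.118%, 0.101%, 0.0209%, 0.0142%, 0.0227% and 0.0148% for the other genes. Both sets were high to 3 h and low from 6 h, with an increase at 12 h. MkP had a single library per chase time, and at 12 h only 83 members had a value, the fewest of the 7 times. Relative to 0.5 h, the median at 24 h was 0.148 in members and 0.131 in the others. In LT.HSC only 21 members had all times, with medians from 0.0165% to 0.183% and no steady course. These values have no replicate spread, and no test was possible on them.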

How the data were processed

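For atlas IP and Igf2bp2 libraries the authors deposited raw counts by gene symbol. For Mettl3 IP they deposited estimated counts (expected counts), taken here without rounding, and for both input tables normalised counts (unit signal). Per the submitters' processing notes, kallisto, Trimmomatic and fastp were used with GRCm38, with no versions or roles given. In the inputs, 100% of values were whole multiples of a step per library within 0.1 of a read, which gave whole reads. SLAM-seq values were deposited as a fraction (T-to-C ratio), printed as percent, with no depth.

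Inputs were tested with limma 3.58.1 (R 4.3.3) on log2(value + 1), with genes of at least 10 in at least 2 libraries. Pulldown differences used log2(CPM + 1) with TMM factors, at least 1 CPM in 4 libraries of each table, which removes any change shared by all genes. Igf2bp2 counts were tested with edgeR 4.0.16 (DESeq2 1.42.0 as alternative), and new RNA with limma on log2(percent + 0.1), above 0 in at least 6 libraries. Fold changes on these scales understate low genes. P-values were adjusted by Benjamini-Hochberg over all genes, with a threshold of 0.05. The tests recovered changes planted in simulated data. Those libraries were simulated independently of each other, so the recovery says nothing about real libraries of the same number that deviate together. The members and lists were chosen with earlier results of these data known. The symbols left out were removed before the 200 lowest were taken. Named genes were the 12 lowest, the 3 on each side of the limit, the 5 highest and 5 lowest differences called, and up to 4 per list, and others were chosen after their values were seen. Some genes that the rule names are not reported here.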

Additional observations from a re-analysis of the deposited data

How the results depend on the processing

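Of the 200 members, 191 were also chosen when symbols were left out after the ranking, 199 and 191 with pseudocounts of 0.1 and 5 CPM, 182 with the mean over types and 189 without LT.HSC. After seeing the data, 180 were found without CD4, CD8 and Monocyte and 195 without B_cell and Erythroid. With a single replicate of every type, 157 and 156 were shared. A floor of 1 CPM left 83, since it admits 5910 genes, a floor of 20 CPM left 48, since only 48 members pass it, and TMM factors left 110, with 4502 genes over the floor. The WT level in the Mettl3 set, members minus all genes, was -1.38 and -1.10 with TMM factors.

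For RNA in Mettl3 KO, members higher were 32, and 38 with a replicate block, 35 with edgeR on recovered reads, 30 with a pseudocount of 10, 19 without the filter, 15 with TMM factors, 12 without LT.HSC (1 lower), 0 as 2 means against 2 and 0 without LT.HSC, MPP and ST.HSC (added after seeing the data). Leaving out single libraries gave 16 to 56 higher and 0 to 1 lower. These are counts of members alone, without the share of all genes called under the same setting. The cause of these moves was not tested. None of the 10 named members changed direction, but many of their calls were lost. Over 36 alternative settings, the call was lost in 24 for Cd74, 23 for Napa, 22 for Stxbp2 and 21 for Ctsb. It was lost in 15 for Snw1, 14 for Apoe, 3 each for Tuba4a and Shisa5, and 2 each for Atg101 and Grn. For the pulldown change, leaving out single libraries gave 0 to 1 lower, and the replicate block left 0. Igf2bp2 and new RNA gave 0 members under each alternative, including the replicate block, while the genes called for Igf2bp2 were 0 (edgeR), 8 (replicate block), 44 (no filter) and 94 (DESeq2). Replicate numbers did not pair KO with WT: the correlation of replicate differences was above 0.1 in 2 of 7 types in Mettl3 inputs and 1 of 7 in IP, and 0.0177 for Igf2bp2, so the block is a check only. Depth is unknown for T-to-C ratios.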
